A study of Mus musculus with 16 samples.

Results

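The 7 genes described here encode the subunits of the NMDA receptor, namely Grin1, Grin2a, Grin2b, Grin2c, Grin2d, Grin3a and Grin3b. They were chosen by name, by matching the Ensembl gene IDs of the count tables to mouse symbols, and all 7 were found among the 38924 listed IDs. All 7 also passed the filter on low counts. The series measured mRNA by sequencing in mouse brain punches that the labels place in the ventral posterolateral nuclei of the thalamus, which relay touch and pain signals to the cortex. Its design text describes lowering RGS4, a regulator of G protein signalling, in mice with a floxed gene by a viral vector that carries Cre, whose promoter is not given in the sources used here, while the sample labels name a KO genotype only. The 4 groups, with 4 libraries each, were KO-labelled mice given CFA, WT mice given CFA, KO-labelled naive mice and WT naive mice. CFA is not written out in the labels, and in pain studies these letters usually mean complete Freund's adjuvant. Each library held punches pooled from 2 mice, and ages are not given in the labels. The sex label reads female for all libraries, whereas the protocol text says male.

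NMDA receptors are glutamate-gated cation channels that let calcium into neurons once a magnesium block is relieved by depolarisation. Each receptor needs GluN1, the subunit made from Grin1, which binds glycine or D-serine as co-agonist. GluN2 subunits, from Grin2a to Grin2d, bind glutamate and set how fast the channel closes and how strongly magnesium blocks it, with a weaker block in receptors that hold GluN2C or GluN2D. GluN3 subunits, from Grin3a and Grin3b, bind glycine and lower calcium entry. Receptors with GluN2A or GluN2B are known for their part in synaptic plasticity and in the sensitisation of pain pathways.

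The stretches upstream of 3 members are shown first, because Grin2c and Grin3b were the members called after CFA in WT libraries and Grin1 is the subunit that all receptors share. Each is the 250 bases before the RefSeq start of the gene in GRCm38.p6, written 5′ to 3′ on the gene's strand, with matches to the searched motifs in capitals. They lie at chr11:115267244-115267493 on the minus strand for Grin2c, chr10:79970474-79970723 on the plus strand for Grin3b and chr2:25319188-25319437 on the minus strand for Grin1.
Grin2c: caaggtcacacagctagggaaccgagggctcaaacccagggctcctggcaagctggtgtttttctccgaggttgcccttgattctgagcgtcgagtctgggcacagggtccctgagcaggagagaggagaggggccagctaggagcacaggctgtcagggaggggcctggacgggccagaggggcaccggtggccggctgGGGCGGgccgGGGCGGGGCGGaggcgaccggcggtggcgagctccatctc
Grin3b: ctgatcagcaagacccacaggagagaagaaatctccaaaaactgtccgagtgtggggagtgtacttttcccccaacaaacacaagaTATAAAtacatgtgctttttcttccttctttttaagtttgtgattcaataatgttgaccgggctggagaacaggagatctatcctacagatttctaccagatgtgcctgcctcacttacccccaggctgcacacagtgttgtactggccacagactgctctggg
Grin1: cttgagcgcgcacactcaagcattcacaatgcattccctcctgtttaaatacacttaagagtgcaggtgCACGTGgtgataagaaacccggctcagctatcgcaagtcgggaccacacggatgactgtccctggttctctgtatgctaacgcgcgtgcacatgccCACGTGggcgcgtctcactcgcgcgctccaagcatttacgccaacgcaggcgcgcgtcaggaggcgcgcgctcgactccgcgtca
The motifs searched on both strands were the GC box GGGCGG, the TATA box TATAAA, the E-box CACGTG, the CCAAT box CCAAT and the cAMP response element TGACGTCA. The Grin2c stretch held 3 GC boxes, at -50, -40 and -35 from the start, of which the last 2 overlap by 1 base, and 32.7% of the 32851 RefSeq mouse stretches of this length held at least 1. The Grin3b stretch held 1 TATA box, at -164, which 12.4% of the stretches held. The Grin1 stretch held 2 E-boxes, at -181 and -85, which 6.0% of the stretches held. The CCAAT box and the response element, held by 33.8% and 1.5% of all stretches, had no match in these 3. Base composition differed widely between them, with 68.8% G and C and 15 CG pairs upstream of Grin2c, 46.0% and 2 upstream of Grin3b, and 58.8% and 27 upstream of Grin1, against medians of 52.4% and 6 over all stretches. The RefSeq table held 4 of the 7 members, the other being Grin2d. A motif match describes the letters only.

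Library totals ran between 18.1 M and 78.8 M counts in genes (M, 1000000 counts), with a median of 42.6 M, and 18350 genes were tested. Rgs4 itself did not differ between the genotype labels beyond the spread between libraries. It averaged 84.1 ± 5.5 CPM in KO-labelled CFA libraries and 89.3 ± 6.66 CPM in WT CFA libraries, and 81.3 ± 2.74 CPM in KO-labelled naive libraries and 80.9 ± 3.66 CPM in WT naive libraries (SD, n = 4 each). Here CPM is counts in each 1000000 counts of the library, on totals scaled by TMM, the trimmed mean of M-values. Exact two-sided permutation tests gave p = 0.229 with CFA and p = 0.886 in naive libraries, so genotype is written as a label throughout. The 95% intervals of the fold of KO-labelled over WT libraries, from the edgeR fit, were 0.871 to 1.01 with CFA and 0.93 to 1.08 in naive libraries. For CFA over naive, the Rgs4 fold was 1.1 in WT libraries (1.02 to 1.19, edgeR adjusted p = 0.15, exact permutation p = 0.0857). In KO-labelled libraries it was 1.03 (0.957 to 1.12, edgeR adjusted p = 0.892, exact permutation p = 0.4). Averaged over both genotypes it was 1.07 (1.01 to 1.13, edgeR adjusted p = 0.221). Rgs4 was called by edgeR in no comparison. Of the thalamic relay neuron markers, Slc17a6 lay at 431.6 to 535.1 CPM and Tcf7l2 at 109.5 to 179.1 CPM, whereas Prkcd lay at 9.82 to 18 CPM and Gbx2 at 0 to 0.242 CPM. The serotonin neuron marker Tph2 was present at 58.9 to 646.2 CPM, although it is not a gene of thalamic neurons. In bulk punches, fewer cells of a type and less RNA per cell cannot be told apart.

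Counts were high for 6 of the 7 members and low for Grin3b. In single libraries they ran between 299 and 1529 for Grin2a and between 5340 and 23438 for Grin1, but between 30 and 130 for Grin3b. Levels per length placed Grin1 far above the others. Per kb of merged exons and over all 16 libraries, Grin1 had 30.3 ± 1.4 CPM per kb, Grin2d 12.9 ± 0.63, Grin3a 9.63 ± 0.38, Grin2c 8.03 ± 0.806, Grin2b 6.28 ± 0.298, Grin2a 1.03 ± 0.0791 and Grin3b 0.437 ± 0.125 CPM per kb (SD, n = 16). Of neighbours in this order, Grin3a and Grin2c overlapped in range, at 9.02 to 10.2 and 6.64 to 9.32 CPM per kb, and so did Grin2c and Grin2b, the last at 5.65 to 6.75 CPM per kb. The other neighbours did not overlap in any library.

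The order in the middle depended on which length was used. Merged exons of Grin2b span 24842 bases, nearly all from a long transcript of 24060 bases, while its coding sequence has 4446 bases. Per kb of coding sequence, Grin2b at 35.1 ± 1.67 CPM per kb and Grin3a at 34.7 ± 1.37 CPM per kb took the second and the third place with overlapping ranges, followed by Grin2d at 21.7 ± 1.06 and Grin2c at 10.9 ± 1.09 CPM per kb. Per kb of the longest coding transcript, Grin2d at 15.9 ± 0.772 and Grin3a at 15.8 ± 0.622 CPM per kb took the second and the third place, and Grin2b at 6.48 ± 0.308 CPM per kb the fifth. Grin1 was the highest, Grin2a next to last and Grin3b last with each of the 3 lengths. Grin1 made up 44.2 ± 1.49% of the summed level of the 7 genes by merged exons, 48.8 ± 1.44% by coding sequence and 58.8 ± 1.39% by longest transcript. Grin2a, by the same 3 lengths, made up 1.51%, 2.02% and 1.08%.

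**Figure D1:**
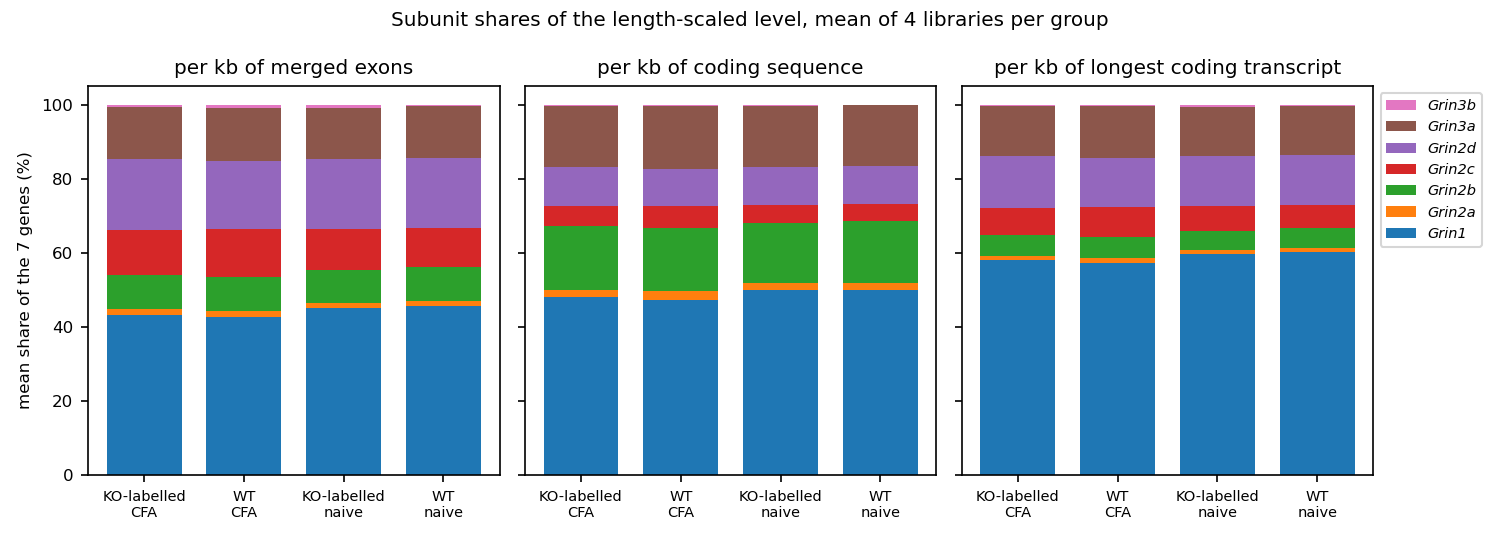
Stacked bars give each subunit gene's mean share, in percent, of the summed length-scaled level of the 7 genes in KO-labelled CFA, WT CFA, KO-labelled naive and WT naive libraries (n = 4 each), with a panel for each gene length. Grin1 is the widest band in every panel, while the bands of Grin2b, Grin2d and Grin3a change size with the length used.

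The summed level of the 7 genes overlapped between all groups. It lay at 66.1 to 70.6 CPM per kb in KO-labelled CFA libraries, at 66.1 to 71.2 in WT CFA libraries, at 66.3 to 70.3 in KO-labelled naive libraries and at 67 to 70.6 CPM per kb in WT naive libraries. The plot of levels by library shows each member on its own.

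**Figure D2:**
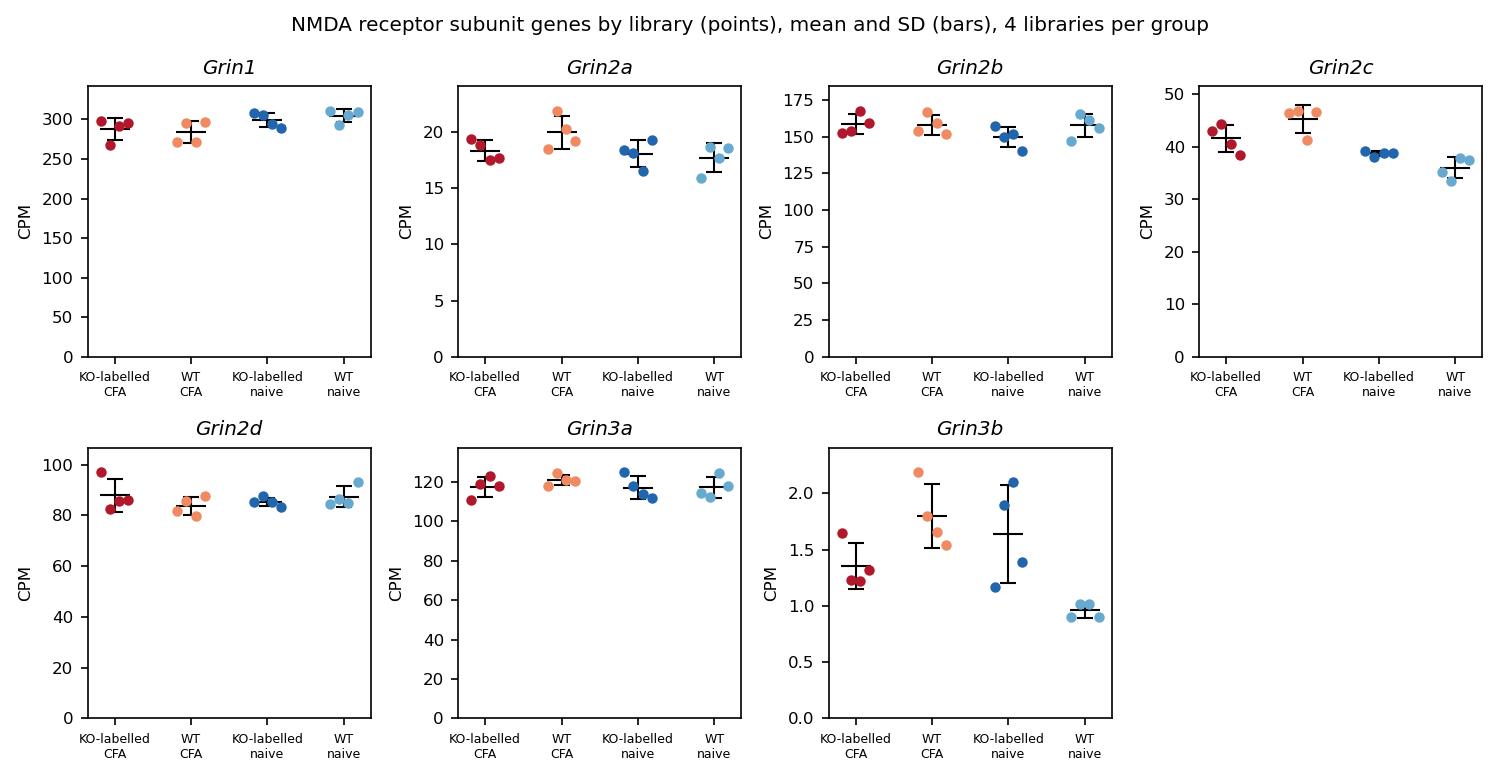
Points give the level of each subunit gene in CPM in each library, and bars give the mean and SD of the 4 libraries per group, on axes that start at 0. Grin2c and Grin3b stand higher in WT CFA than in WT naive libraries with no overlap, while the libraries of the other 5 genes overlap in that comparison.

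The comparison of WT CFA with WT naive libraries asks which subunit genes differed after CFA in WT animals. Grin2c and Grin3b were called higher, and no member was called lower. Genes called in this comparison, at an adjusted p under 0.05 from edgeR's quasi-likelihood test with Benjamini-Hochberg adjustment over all genes, made up 2.23% of the 18350 tested, with 1.42% called higher. Of the members 4 had an unadjusted p under 0.05, as had 17.6% of all genes. The median log2 change of the 7 members was 0.042, against -0.001 over all genes tested.

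Grin2c (ENSMUSG00000020734.7, chromosome 11, 115249169 to 115267243 in mm10, minus strand) encodes GluN2C, known from cerebellar granule cells, thalamus and astrocytes. It had 46.4, 46.9, 41.3 and 46.7 CPM in WT CFA libraries, against 35.3, 33.5, 37.9 and 37.4 CPM in WT naive libraries. Every WT CFA library was above every WT naive library, with the lowest of them, library 11, set apart from the other 3. The means were 45.3 ± 2.69 CPM with CFA and 36 ± 2.03 CPM in naive WT libraries, a fold of 1.26 (95% interval 1.17 to 1.35), or a log2 change of 0.33 (SE 0.05, adjusted p = 0.00174). By p-value Grin2c ranked 18 of the 18350 genes. The call was made in all 23 alternative fits run, with log2 changes between 0.3 and 0.37.

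Grin3b (ENSMUSG00000035745.2, chromosome 10, 79970715 to 79977190, plus strand) encodes GluN3B, known chiefly from motor neurons of the brainstem and spinal cord. It had 2.19, 1.8, 1.66 and 1.54 CPM in WT CFA libraries, against 0.902, 1.02, 1.02 and 0.897 CPM in WT naive libraries. The lowest WT CFA library thus stood above the highest WT naive library. The means were 1.8 ± 0.281 CPM with CFA and 0.959 ± 0.0682 CPM in naive WT libraries, a fold of 1.86 (1.45 to 2.38), with a log2 change of 0.89 (SE 0.17, adjusted p = 0.00968). With all libraries thinned to the depth of the shallowest, the log2 change was 0.96 and the call was lost (adjusted p = 0.069). Libraries did not overlap between the groups for 2 of the 7 members, and for 11.3% of all genes.

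Grin3b shares 1059 bases, or 32.13% of its merged exons, with Tmem259 on the opposite strand, and the library kit did not mark strand. Tmem259 averaged 87.2 ± 2.08 CPM in WT CFA libraries and 85.8 ± 4.42 CPM in WT naive libraries, and was not called (fold 1.02, adjusted p = 0.813).

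Markers of other cells moved alongside Grin3b. The summed level of the motor, oculomotor and cholinergic neuron markers, of which 8 of 9 are in the tables, was 288.9 to 434.1 CPM in WT CFA libraries and 43.1 to 70.7 CPM in WT naive libraries. Of the 7 markers tested, edgeR called 2 higher, namely the neuropeptide genes Ucn and Cartpt, where it called 1.42% of all genes higher. DESeq2 called these and Isl1, among 762 genes in all. Cartpt averaged 276.5 CPM with CFA and 33.2 CPM in naive WT libraries, where the whole sum averaged 361.2 and 59.1 CPM. Most of the sum was thus this 1 gene. Ucn averaged 17.6 CPM with CFA and 1.8 CPM in naive WT libraries. Chat, the enzyme that makes acetylcholine, averaged 10.8 CPM in WT CFA and 3.45 CPM in WT naive libraries, while Phox2a was at 0 in at least 1 library and never above 0.0865 CPM. Hypothalamus and zona incerta markers summed to 4.42 to 5.87 CPM in WT CFA libraries and 2.65 to 3.67 CPM in WT naive libraries, with Sim1 called higher by edgeR and DESeq2. Serotonin neuron markers averaged 457.3 ± 225.7 CPM in WT CFA libraries and 914.3 ± 292.4 CPM in WT naive libraries, with overlap. Midbrain dopamine neuron markers averaged 311.6 ± 138.7 CPM in WT CFA libraries and 514.3 ± 152.7 CPM in WT naive libraries, also with overlap. Most of that sum was Ddc (121.5 against 203.5 CPM) and Slc18a2 (137.3 against 254.3 CPM), and En1 and Pitx3 also averaged lower with CFA. Th (29.3 against 28.2 CPM) and Slc6a3 (7.31 against 6.88 CPM) did not average lower. The part of these cells in the level of Grin3b was not tested.

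Beside Grin2c, the summed level of the 10 astrocyte markers was 3654.2 to 3724.9 CPM in WT CFA libraries and 3471.3 to 3646.6 CPM in WT naive libraries. Of these markers 0 were called by edgeR, 1 by DESeq2 (Fgfr3, higher) and 3 had an unadjusted p under 0.05. The largest part of the sum was Slc1a2, at 1868.8 CPM with CFA and 1751.5 CPM in naive WT libraries. Gja1, Gfap, Agt, Fgfr3 and Gjb6 also averaged higher with CFA. Aqp4, Slc1a3 and Aldh1l1 averaged lower, and Ntsr2 averaged 191.6 CPM in both groups. The relay neuron markers summed to 808.2 to 921.9 CPM in WT CFA libraries and 777.4 to 847.4 CPM in WT naive libraries. Of the 11 tested, edgeR called 2 higher, Ntng1 and Cbln1, where it called 1.42% of all genes higher. DESeq2 called these and Plekhg1. Lef1, Rgs16 and Synpo2 averaged lower with CFA, and Slc17a6 averaged 460.6 CPM with CFA against 460.7 CPM. Mature oligodendrocyte markers summed to 8259.8 to 9387.9 CPM in WT CFA libraries and 6480.1 to 8383.7 CPM in WT naive libraries. Their part in the level of Grin2c was not tested.

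**Figure D3:**
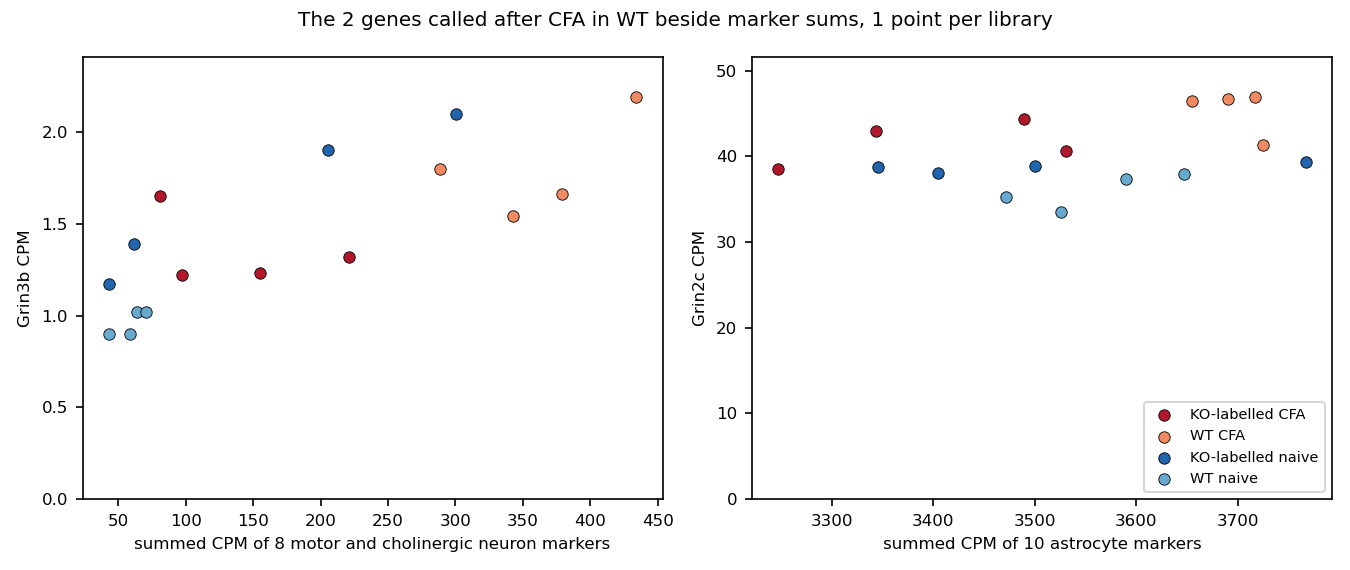
Each point is 1 library, with Grin3b in CPM against the summed CPM of 8 motor and cholinergic neuron markers at left, and Grin2c in CPM against the summed CPM of 10 astrocyte markers at right. KO-labelled naive libraries 6 and 7 lie at 205.5 and 300.5 CPM of motor markers and at 1.9 and 2.1 CPM of Grin3b, nearer to WT CFA libraries than the other 2 of their group. Cartpt makes up most of the mean motor marker sum in every group.

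The remaining 5 members were not called in WT after CFA. Grin2a, which encodes the GluN2A subunit of fast receptors in the mature brain, had 18.5, 21.9, 20.3 and 19.2 CPM in WT CFA libraries, against 15.9, 18.7, 17.7 and 18.6 CPM in WT naive libraries. Only the lowest WT CFA library fell within the naive range, and the fold was 1.13 (1.03 to 1.23, adjusted p = 0.148). Grin1 had 271.8, 295, 271.9 and 296.9 CPM in WT CFA libraries, against 311.2, 292.6, 305.3 and 309.6 CPM in WT naive libraries. The WT CFA libraries with the higher levels, 10 and 12, overlapped with naive library 2, and the fold was 0.932 (0.881 to 0.986, adjusted p = 0.172). Grin1os, the antisense gene that shares 1307 bases with Grin1, had a fold of 0.832 (adjusted p = 0.144).

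Grin2b, which encodes the subunit that dominates early in development, averaged 158.1 ± 6.71 CPM in WT CFA libraries and 157.6 ± 8.05 CPM in WT naive libraries. Grin2d, whose product forms the slowest receptors, averaged 83.7 ± 3.7 CPM with CFA and 87.4 ± 4.09 CPM in naive WT libraries. Grin3a, whose product restrains the maturation of synapses, averaged 120.9 ± 2.67 CPM with CFA and 117.3 ± 5.32 CPM in naive WT libraries. Their folds were 1 (0.943 to 1.07) for Grin2b, 0.959 (0.898 to 1.02) for Grin2d and 1.03 (0.972 to 1.09) for Grin3a.

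**Figure D4:**
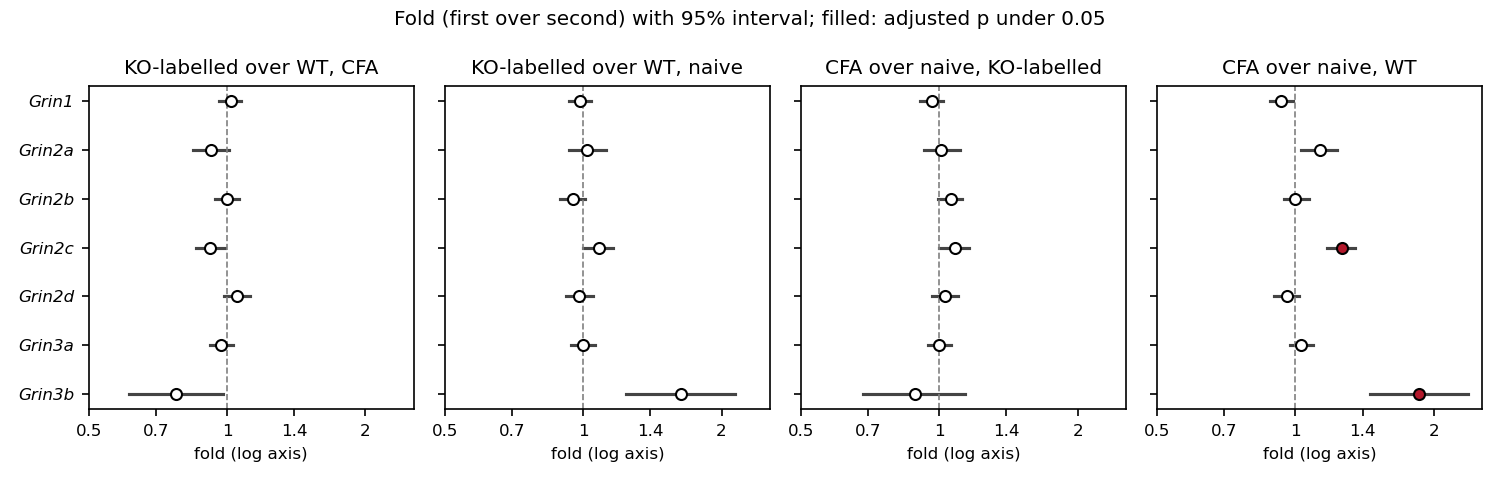
Points give the fold of each subunit gene on a log axis with its 95% interval in 4 comparisons, and filled points passed an adjusted p under 0.05 in edgeR. Grin2c and Grin3b are filled in WT CFA over WT naive, at 1.26 and 1.86, and no point is filled in the other panels.

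The same comparison in KO-labelled libraries gave no called member. Genes called made up 0.185% of those tested, and of the members 0 passed in edgeR, 0 passed in DESeq2 and 0 had an unadjusted p under 0.05, as had 7.81% of all genes. Groups without overlap occurred for 0 of the members and for 4.29% of all genes. Grin2c had 43, 44.4, 40.6 and 38.5 CPM in KO-labelled CFA libraries, against 39.3, 38, 38.9 and 38.8 CPM in KO-labelled naive libraries. Of the 4 CFA libraries 3 were above all naive libraries, and the lowest lay among them, with a fold of 1.08 (0.999 to 1.16, adjusted p = 0.648). Beside it, the astrocyte markers summed to 3402.8 ± 130.8 CPM with CFA and 3504.6 ± 185.9 CPM in naive KO-labelled libraries, with overlap. Their part in the level of Grin2c was not tested. Grin3b had 1.65, 1.23, 1.22 and 1.32 CPM in KO-labelled CFA libraries, against 1.17, 1.9, 2.1 and 1.39 CPM in KO-labelled naive libraries. These groups overlapped, and the naive libraries were the most scattered of any group, with a coefficient of variation of 26.3%. The fold was 0.883 (0.683 to 1.14, adjusted p = 0.867).

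Within the KO-labelled naive group the motor and cholinergic marker sum was 43, 205.5, 300.5 and 61.5 CPM in libraries 5 to 8, high in the same libraries, 6 and 7, where Grin3b was high. In KO-labelled CFA libraries the sum was 80.8, 155.4, 97.2 and 220.8 CPM. There the library with the highest Grin3b, 13, had the lowest sum. Cartpt averaged 110.5 CPM of a mean sum of 152.6 CPM in KO-labelled naive libraries, and 102.8 of 138.6 CPM in KO-labelled CFA libraries. The part of cells with these markers was not tested here either.

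The other members were not called with CFA in KO-labelled libraries either. Grin1 averaged 288.2 ± 14.2 CPM with CFA and 299.4 ± 8.87 CPM in naive KO-labelled libraries, a fold of 0.962 (0.909 to 1.02). Grin2b averaged 158.3 ± 6.85 CPM with CFA and 149.7 ± 7 CPM in naive KO-labelled libraries, a fold of 1.06 (0.992 to 1.12). Folds of Grin2a, Grin2d and Grin3a were 1.01 (0.924 to 1.11), 1.03 (0.965 to 1.1) and 1 (0.945 to 1.06).

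Whether the CFA difference itself depended on the genotype label was tested by the interaction. Of all genes edgeR called 0.0654%, and of the members 0. DESeq2 called 1 member, among 87 genes in all. In edgeR 2 members had an unadjusted p under 0.05, as had 9.86% of all genes. For Grin3b the CFA change in KO-labelled libraries minus that in WT libraries was -1.07 on the log2 scale (SE 0.25), with an unadjusted p of 0.000321 and an adjusted p = 0.134. DESeq2 gave -1.09 with an adjusted p = 0.0382, and without KO-labelled naive library 5 edgeR gave -1.24 with an adjusted p = 0.0403. In the other 20 of 22 alternatives it was not called. There the adjusted p was 0.0642 with no filter on low counts, 0.276 after thinning and 0.296 without KO-labelled naive libraries 7 and 8. For Grin2c the difference was -0.23 (SE 0.07, unadjusted p = 0.0048, adjusted p = 0.288). The other members lay between -0.15 and 0.1. Averaged over both genotypes, Grin2c was called higher with CFA, at a fold of 1.16 (1.1 to 1.22, adjusted p = 0.00193), the 1 member called where 1.81% of all genes were. An unadjusted p under 0.05 was reached by 4 members and by 14.6% of all genes in this average. Grin1 had an average fold of 0.947 (0.91 to 0.985, adjusted p = 0.168) and Grin3b one of 1.28 (1.07 to 1.53, adjusted p = 0.16).

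Between genotype labels in naive libraries 0 members were called by edgeR, where 1.45% of all genes were. DESeq2 called 1 member, among 459 genes in all. The same member had an unadjusted p under 0.05 in edgeR, as had 13.8% of all genes. That member was Grin3b, at 1.64 ± 0.431 CPM in KO-labelled naive libraries and 0.959 ± 0.0682 CPM in WT naive libraries, a fold of 1.63 (1.24 to 2.14, adjusted p = 0.0653). All 4 KO-labelled libraries were above all 4 WT libraries. DESeq2 gave a log2 change of 0.71 (adjusted p = 0.042), and edgeR without KO-labelled library 5 gave 0.87 (adjusted p = 0.0273). In the other 21 of 23 alternatives it was not called. There the adjusted p was 0.0519 with no filter on low counts and 0.0983 after thinning. It was 0.125 in a fit of these groups alone and 0.293 without KO-labelled libraries 7 and 8. Grin2c was likewise higher in all KO-labelled naive libraries, at 38.7 ± 0.566 CPM against 36 ± 2.03 CPM in WT naive libraries, but by a fold of 1.08 only (0.999 to 1.16, adjusted p = 0.368). Groups without overlap occurred for these 2 members and for 7.23% of all genes. The motor and cholinergic markers summed to 43 to 300.5 CPM in KO-labelled and 43.1 to 70.7 CPM in WT naive libraries, and their part in the Grin3b level was not tested. Astrocyte markers summed to 3504.6 ± 185.9 CPM in KO-labelled and 3558.2 ± 76.2 CPM in WT naive libraries, with overlap. Their part in the Grin2c level was not tested. The KO-labelled naive libraries included the shallowest of the series, library 7.

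The other naive folds of KO-labelled over WT libraries were 0.983 (0.929 to 1.04) for Grin1, 1.02 (0.931 to 1.12) for Grin2a, 0.95 (0.892 to 1.01) for Grin2b, 0.978 (0.915 to 1.05) for Grin2d and 0.999 (0.942 to 1.06) for Grin3a.

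With CFA, 0 members were called between genotype labels by edgeR or DESeq2, where edgeR called 1.6% of all genes, and 2 members had an unadjusted p under 0.05, as had 12.3% of all genes. Both were lower in KO-labelled libraries. Grin2c averaged 41.6 ± 2.61 CPM in KO-labelled CFA libraries and 45.3 ± 2.69 CPM in WT CFA libraries (fold 0.92, 0.857 to 0.988, adjusted p = 0.306). Grin3b averaged 1.36 ± 0.201 CPM in KO-labelled CFA libraries and 1.8 ± 0.281 CPM in WT CFA libraries (fold 0.775, 0.613 to 0.979, adjusted p = 0.348). Groups without overlap occurred for 0 of the 7 members and for 8.03% of all genes. Beside these values, the astrocyte markers summed to 3247.6 to 3530.6 CPM in KO-labelled CFA libraries and 3654.2 to 3724.9 CPM in WT CFA libraries. The motor and cholinergic markers summed to 80.8 to 220.8 CPM in KO-labelled CFA libraries and 288.9 to 434.1 CPM in WT CFA libraries. Neither pair overlapped, and their part in the levels of Grin2c and Grin3b was not tested. Averaged over both treatments, 0 members were called between genotype labels by edgeR, where 3.73% of all genes were. DESeq2 called 0 as well, and 0 had an unadjusted p under 0.05, as had 14.3% of all genes.

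Shares within the receptor family, which do not depend on library scaling, gave a second view of the same libraries. The share of Grin1 in the summed level per kb of merged exons was 41.8, 42.7, 42.4 and 43.4% in WT CFA libraries, against 47, 45, 45.2 and 45.2% in WT naive libraries. It was 43.5, 41.7, 43.5 and 44.5% in KO-labelled CFA libraries, against 45.2, 45.4, 44.8 and 45% in KO-labelled naive libraries. In both genotypes every CFA library lay below every naive library, by 3.04 percentage points on average in WT (42.6 ± 0.664% against 45.6 ± 0.955%) and by 1.77 in KO-labelled libraries (43.3 ± 1.17% against 45.1 ± 0.262%). Each difference had an exact two-sided permutation p = 0.0286, the smallest that 4 libraries against 4 can give, and an adjusted p = 0.133 over the 28 share differences. With the other 2 gene lengths the differences in Grin1 share had the same sign and the same permutation p.

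The share of Grin2c was higher with CFA in WT, with 13.7, 13.1, 12.4 and 13.2% in WT CFA libraries, against 10.3, 9.92, 10.8 and 10.5% in WT naive libraries. No library overlapped, and the difference of 2.72 percentage points had the same exact permutation p = 0.0286 and adjusted p = 0.133. In KO-labelled libraries the Grin2c share was 12.1, 13.3, 11.6 and 11.2% with CFA, against 11.1, 10.9, 11.4 and 11.6% in naive libraries, which overlapped (exact permutation p = 0.114). In all, 6 of the 28 share differences reached the smallest possible p with an unadjusted p under 0.05, and 0 passed after adjustment. The other 3 of the 6 were those of Grin3b with CFA in WT and those of Grin2c and Grin3b between genotype labels in naive libraries. Because the exact permutation p cannot fall below 0.0286, a pass after adjustment would have needed most of the 28 differences at that value. The adjustment therefore could hardly be passed, and no conclusion is drawn from the adjusted p = 0.133 of the shares. Shares of the same library add up to its whole, so the differences of Grin1 and Grin2c are not independent.

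The log2 ratio of Grin2a to Grin2b, per kb of merged exons, addresses the balance of the 2 GluN2 subunits that shifts during development. It was -2.583, -2.463, -2.499 and -2.519 in WT CFA libraries, against -2.74, -2.68, -2.719 and -2.597 in WT naive libraries. All CFA libraries were above all naive libraries, by 0.168 on average (exact two-sided permutation p = 0.0286, the smallest possible). In KO-labelled libraries the ratio averaged -2.64 ± 0.131 with CFA and -2.58 ± 0.143 in naive libraries, with overlap (exact permutation p = 0.629). Between genotype labels it differed by -0.123 with CFA (exact permutation p = 0.171) and by 0.103 in naive libraries (exact permutation p = 0.257).

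Genes that act with the receptor were followed in 5 lists holding 91 genes, all of them tested. In WT libraries 4 of the 91 were higher with CFA and 0 were lower by edgeR, 7 were higher and 1 lower by DESeq2, and 21 had an unadjusted p under 0.05. Over all genes edgeR called 1.42% higher, DESeq2 called 762 genes, and 17.6% had an unadjusted p under 0.05. Among 19 scaffolds and structural proteins of the postsynaptic density, Nefl, a neurofilament subunit that binds GluN1, averaged 552 ± 27.3 CPM in WT CFA libraries and 417.1 ± 36.3 CPM in WT naive libraries (fold 1.32, adjusted p = 0.0118). Among 14 calcium-dependent targets, Capn2, a calcium-activated protease, averaged 120.3 ± 2.3 CPM with CFA and 109.4 ± 2.69 CPM in naive WT libraries (fold 1.1, adjusted p = 0.0132). Among 20 genes of co-agonist and glutamate handling, Glul, the glutamine synthetase of astrocytes, averaged 1458 ± 50.6 CPM with CFA and 1289.7 ± 43.5 CPM in naive WT libraries (fold 1.13, adjusted p = 0.0144). Among 19 auxiliary, trafficking and turnover genes, Nrg1, a ligand of ErbB receptors, averaged 15.7 ± 1.44 CPM with CFA and 12.2 ± 0.733 CPM in naive WT libraries (fold 1.29, adjusted p = 0.024). Of the 19 kinases and phosphatases, which include Src, Fyn and Ptpn5, edgeR called 0 in each of the 7 comparisons, with 0 to 4 at an unadjusted p under 0.05. DESeq2 called 1 of them, Src, a kinase that phosphorylates GluN2 subunits, lower with CFA in WT, where edgeR gave a fold of 0.922 (adjusted p = 0.0534), and again in the average over both genotypes.

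Glul was also the 1 partner called with CFA in KO-labelled libraries, where edgeR called 0.185% of all genes. It averaged 1435 ± 35.3 CPM with CFA against 1246.4 ± 67.4 CPM in naive KO-labelled libraries (fold 1.15, adjusted p = 0.0194). That call was lost without KO-labelled naive library 6 (adjusted p = 0.114) or 7 (0.0694), and without KO-labelled CFA library 15 (0.0777) or 16 (0.0611). It was also lost in a fit of these groups alone (0.0995) and without KO-labelled naive libraries 7 and 8 (0.283), while the log2 change lay between 0.16 and 0.24 in the 23 alternatives. The calls of Capn2 and Glul in WT were lost without WT naive library 2 (adjusted p = 0.0544 and 0.0617). That of Nrg1 was lost without WT naive library 1 (0.059) or 3 (0.0913), or WT CFA library 9 (0.0541) or 11 (0.0898), and after thinning (0.0567).

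Between genotype labels in naive libraries edgeR called 2 partners, where it called 1.45% of all genes, and 7 had an unadjusted p under 0.05, as had 13.8% of all genes. DESeq2 called these 2 and Nefl, among 459 genes in all. Nefl averaged 510.9 ± 51.5 CPM in KO-labelled naive libraries and 417.1 ± 36.3 CPM in WT naive libraries, with no overlap (fold 1.22, edgeR adjusted p = 0.0717). Nefl was also the 1 partner that DESeq2 called in the interaction, where edgeR gave -0.5 on the log2 scale (adjusted p = 0.134) and called 0 partners, with 11 at an unadjusted p under 0.05. Of all genes edgeR called 0.0654% there, and 9.86% had an unadjusted p under 0.05. Camk4, a calcium and calmodulin-dependent kinase that acts in the nucleus, averaged 80.4 ± 1.77 CPM in KO-labelled naive libraries and 68.5 ± 5.37 CPM in WT naive libraries (fold 1.17, adjusted p = 0.0126). Ddo, which breaks down D-aspartate, an agonist of the receptor, averaged 14.2 ± 1.52 CPM in KO-labelled and 17.4 ± 1.28 CPM in WT naive libraries (fold 0.81, adjusted p = 0.0314). Leaving out single naive libraries took away the Ddo call in 6 cases, namely WT libraries 2, 3 and 4 and KO-labelled libraries 5, 6 and 8 (adjusted p = 0.0514 to 0.116). It was also lost after thinning (0.11), in a fit of these groups alone (0.0956) and without KO-labelled libraries 7 and 8 (0.0541). The Camk4 call was lost without KO-labelled libraries 7 and 8 together (adjusted p = 0.0747). With CFA 0 of the 91 partners were called by edgeR between genotype labels, 3 were called by DESeq2 (Camk2b and Rasgrf1 higher, Slc1a2 lower), and 17 had an unadjusted p under 0.05. Over all genes edgeR called 1.6%, DESeq2 called 465 genes, and 12.3% had an unadjusted p under 0.05. Over both treatments edgeR called 1 partner higher and 2 lower, where it called 3.73% of all genes, and 15 had an unadjusted p under 0.05, as had 14.3% of all genes. Camk4 was higher (fold 1.12, adjusted p = 0.00595), and Ddo (0.841, adjusted p = 0.00381) and Fbxo2, a ubiquitin ligase subunit that binds glycosylated GluN1 (0.941, adjusted p = 0.0437), were lower. DESeq2 called these with Rasgrf1 and Rasgrf2, both higher, among 803 genes in all. The Fbxo2 call was lost in 11 of the 16 fits without 1 library, namely WT naive libraries 1 and 4, KO-labelled naive libraries 5, 6 and 7, WT CFA libraries 9, 11 and 12 and KO-labelled CFA libraries 14, 15 and 16 (adjusted p up to 0.104). It was also lost after thinning (adjusted p = 0.354), with no filter on low counts (0.0522) and without KO-labelled naive libraries 7 and 8 (0.0649), and so in 14 of 22 alternatives. The median log2 change of the 91 partners lay between 0 and 0.01 in every comparison.

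Members of the family were only loosely correlated with each other across the 16 libraries. Pearson's r between pairs of members, on log2 CPM, lay between -0.5 for Grin1 with Grin2c and 0.61 for Grin2c with Grin3b. The leading companions of the members were picked by highest r from 15023 candidate genes, those that averaged 1 CPM or more. These were, with r over the 16 libraries, Adgrb2 (0.912) for Grin1, Gabrb2 (0.849) for Grin2a, Pcgf5 (0.891) for Grin2b, Daam2 (0.923) for Grin2c, Ube2o (0.879) for Grin2d, Nrp1 (0.826) for Grin3a and 4632404H12Rik (0.863) for Grin3b. Next in order were Fbxo41 and Ankrd13b for Grin1, Rapgef4 and Oxr1 for Grin2a, Tet1 for Grin2b, Acot11 and Paqr8 for Grin2c, Fam171a2 and Mgat5b for Grin2d, Crim1 and Pdpk1 for Grin3a, and Slit3 and Spp1 for Grin3b. The libraries share groups, so r was also taken on deviations from the group means. There the genes that led on levels had r of 0.684 (Daam2 with Grin2c), 0.509 (4632404H12Rik with Grin3b), 0.872 (Adgrb2 with Grin1) and 0.956 (Pcgf5 with Grin2b). Pcgf5 led for Grin2b on both measures, while for the other 6 members another gene led on deviations: Zmiz2 (0.9) for Grin1, Caln1 (0.89) for Grin2a, Nol9 (0.796) for Grin2c, Rusc2 (0.887) for Grin2d, Zfp831 (0.892) for Grin3a and Nol4l (0.857) for Grin3b. On levels those 6 genes had r of 0.533, 0.631, 0.26, 0.627, 0.653 and -0.284 with the same members, in that order. These values are descriptions over libraries that share punches, depth and cell makeup. The companions are the highest of 15023 values per member, so r above those between members could be had from the size of the search alone.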

How the data were processed

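mRNA was sequenced from 16 pools of mouse brain punches, 4 libraries in each of 4 groups taken from the genotype and treatment labels. The authors deposited raw read counts per Ensembl gene; the submitters' processing notes name TopHat, DESeq2 and the build mm10, without versions here. Settings of the counting step, and the annotation release behind it, are not given in the sources here. Per the labels' protocols the kit was TruSeq RNA version 2, which marks no strand. Reads on bases shared with genes of the opposite strand (Tmem259 with Grin3b, Grin1os with Grin1) thus cannot be assigned by strand. How many of these reads were set aside as ambiguous is not known. Any set aside would lower the levels per kb and shares of Grin3b and Grin1. Lines for reads given to no single gene (38.0% to 39.9% of listed reads, mostly reads with several alignments, then reads outside genes and ambiguous reads) were left out. Symbols, positions and lengths came from a GENCODE annotation of mm10, which matched 37607 of 38924 IDs. Replicates of each group differed beyond sampling noise, with chi-square per degree of freedom between 3.4 and 13.3.

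Counts were tested with edgeR 4.0.16 in R 4.3.3. filterByExpr at a minimum count of 10 kept 18350 genes with 99.961% of the counts. The robust quasi-likelihood fit took all 16 TMM-scaled libraries, each group with its own mean, and two-sided p-values were Benjamini-Hochberg adjusted over all genes within a comparison. The common biological coefficient of variation was 6.1%. For shares, the ratio and Rgs4, permutation tests were used, exact and two-sided. P-values measure the spread between pools of mice. DESeq2 1.42.0, other scalings, no filter, thinning, fits on the groups compared only, and leaving out libraries were tried as alternatives, including KO-labelled naive libraries 7 and 8 together.

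The members, gene lists and the rule for named genes were chosen with earlier results of these data known. The rule names the 7 members and Rgs4 throughout, up to 4 called genes per partner list, and the 3 genes most like each member, of which 1 is not reported here; marker genes and overlapping genes are named beside the results they touch.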

Additional observations from a re-analysis of the deposited data

Results flagged for a closer look

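In 64 sets of 4 libraries (level or share of a gene in a group), a library far from the other 3 was looked for by the gap to its neighbour relative to the range, a rule that flags about 5% of sets by chance. It found 5 sets. Grin2c in WT CFA library 11 had 41.3 CPM, while the other 3 had 46.4 to 46.9 CPM. The share of Grin1 in WT naive library 1 was 47%, against 45 to 45.2% in the others. The share of Grin2d was 20.7% in KO-labelled CFA library 13, against 18.6 to 18.9% in the others, and 18.3% in KO-labelled naive library 5, against 18.9% in the others. The share of Grin3a was 14.6% in WT naive library 3, against 13.6 to 13.7% in the others.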

How the results depend on the processing

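No paired analysis was possible because no library number is shared between groups. The call of Grin2c with CFA in WT was made in all 23 alternatives and that of Grin3b in 22. The number of members called was 1 with DESeq2 in the naive genotype comparison and in the interaction, and 0 to 1 when leaving out 1 library, in both cases Grin3b without KO-labelled naive library 5. It was 1 with CFA in WT after thinning. The Grin2a to Grin2b log2 ratio difference in WT was 0.15 to 0.2 when leaving out 1 library, and that in KO-labelled libraries was -0.11 to 0.01. In WT, 6 of 8 exact permutation tests without 1 library gave p = 0.0571, with no overlap in any. Groups of 3 and 4 libraries without overlap can only give p = 0.0286 or 0.0571 in this permutation test. No conclusion is therefore drawn from these p-values. On library totals the naive Rgs4 difference was -0.507 CPM.

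Of 50 log2 changes followed, 9 changed sign under some alternative, and none of these exceeded 0.04 in size in the main edgeR fit. Values were -0.01 (library totals) and -0.03 (thinned) for Grin2b with CFA in WT, and 0 for Grin2b between labels with CFA (no filter, and without libraries 7 and 8). Without those 2 libraries they were 0.01 for Grin1 and 0.05 for Grin3a between naive labels, and -0.05 for Grin3a with CFA in KO-labelled libraries. Leave-one-out ranges, with CFA in KO-labelled libraries, were -0.02 to 0.05 for Grin2a, -0.01 to 0.07 for Grin2d and -0.02 to 0.04 for Grin3a. Between naive labels they were -0.01 to 0.07 for Grin2a, -0.05 to 0 for Grin2d and -0.04 to 0.03 for Grin3a. For Grin2b they were -0.03 to 0.03 with CFA in WT and between labels with CFA. The causes were not tested.

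Over all genes DESeq2 called 459 naive, 465 CFA, 762 WT, 91 KO-labelled, 87 interaction and 573 average CFA genes, against 266, 294, 409, 34, 12 and 332 with edgeR. Thinning left 175 naive, 193 CFA, 221 WT and 455 average genotype genes (685 with edgeR at full depth). Without libraries 7 and 8 there were 92 naive, 681 WT and 17 KO-labelled genes, and with no filter 31 interaction genes. Leaving out 1 library gave 135 to 296 naive, 178 to 754 WT, 16 to 42 KO-labelled and 5 to 27 interaction genes. Depth limits Grin3b most, with 30 to 130 counts per library.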
